A study of Drosophila melanogaster with 12 samples.

Results

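Wing imaginal discs in which activated Notch was combined with the scribble mutation scrib1 (NS) were set against wing discs with activated Notch alone (N), with 3 libraries in each group. These are 6 of the 12 libraries of a Drosophila melanogaster RNA-sequencing study, chosen as the columns labelled NS and N of its count table. The other 6 libraries, from scrib mutant discs without activated Notch (S) and from a wild-type condition (WT), were used to estimate the spread and to ask whether scrib loss had the same effect without activated Notch. Every library came from a pool of 60 wing discs, dissected from third-instar larvae at 6 days after egg laying. Both compared groups carried y- and w- alleles, the abxUbx-Flp recombinase source, the Act>y+>Gal4 driver with UAS eGFP, and the UAS Nicd transgene, which encodes the free intracellular part of the Notch receptor. NS larvae carried FRT82B scrib1 opposite the FRT82B tubGal80 chromosome, and N larvae carried a plain FRT82B chromosome in its place. Because Gal80 blocks Gal4, the transgene is active only in cells that have lost tubGal80, so discs of both groups are mosaics, and in NS discs the cells that lose tubGal80 through recombination at FRT82B become homozygous for scrib1. The share of such cells in each pool was not measured here. S larvae were w-, had the FRT82B scrib1 chromosome opposite the deficiency Df(3R)BSC752 and no driver, and were therefore mutant throughout. WT replicate 1 carried the driver without the transgene, whereas for WT replicates 2 and 3 the labels name UAS Nicd in the genotype but wild type as the condition.

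Scribble is a scaffold protein of the basolateral membrane that works with Discs large and Lethal giant larvae to keep epithelial cells polarized. Discs that lose it overgrow, lose their single-layered form and are known to activate JNK and JAK/STAT signalling. Notch is a receptor whose cleaved intracellular domain enters the nucleus and, with Suppressor of Hairless, switches on genes of the E(spl) complex. In the wing disc it drives growth and sets up the wing margin, and together with polarity loss it is a known route to disc tumours.

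Depth was 38048822, 21024017 and 40860792 counts in NS replicates 1, 2 and 3, against 39596979, 36153792 and 42407447 counts in N replicates 1, 2 and 3. NS replicate 3 stood apart from the other libraries. Its difference from the other NS libraries ran with exon length (Spearman's rho = -0.72 across 9378 genes, a description), and it was higher by a median log2 of 0.73 in the shortest of 3 equal length classes and lower in the longest, with a median of -0.88. The length trend of the N libraries was weaker, with rho between -0.36 and 0.23. Counts of called genes are therefore given with and without NS replicate 3. Libraries also differed in RNA of attached tissue. Markers of fat body summed to 7372, 1144 and 1484 CPM (counts divided by the scaled library size and brought to the same total in every library) in NS replicates 1, 2 and 3, against 488, 3210 and 354 CPM in N replicates 1, 2 and 3, and the larval serum protein gene Lsp1beta alone ran between 3.55 and 2076 CPM in NS libraries and between 7.40 and 1097 CPM in N libraries. Markers of haemocytes, the blood cells, summed to 86.7 to 271 CPM in NS and to 94.3 to 114.5 CPM in N. None of the 12 haemocyte and 9 fat body markers passed the test with all libraries, with median log2 fold changes of 1.01 and 1.56. Markers of the disc epithelium itself summed to 4692, 4883 and 2082 CPM in NS replicates 1, 2 and 3, against 5609, 4997 and 5555 CPM in N. These markers were thus detected in every compared library, with the lowest sum in NS replicate 3.

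**Figure D1:**
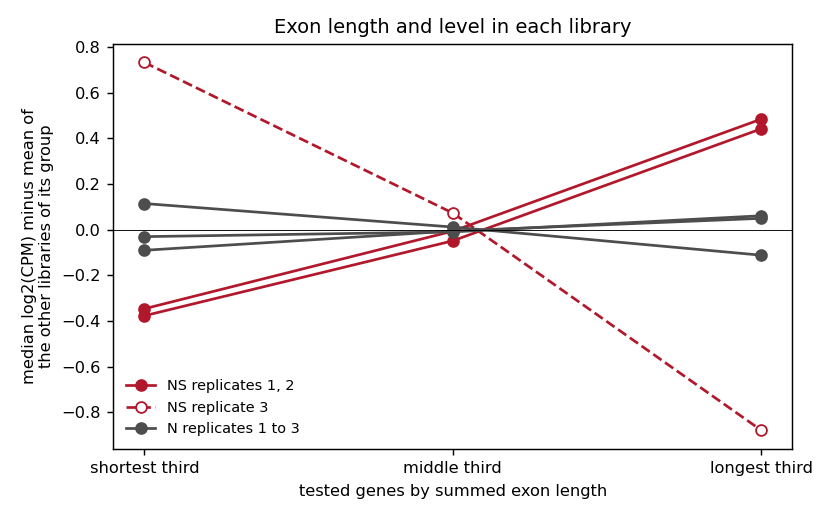
Median of log2 CPM minus the mean of the other libraries of the same group, for tested genes in 3 equal classes of summed exon length, with 1 line per library. NS replicate 3 lies at 0.73 for the shortest genes and at -0.88 for the longest, while the other lines stay closer to 0.

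RNA of scrib itself did not pass the test. It stood at 394, 434 and 87.2 CPM in NS replicates 1, 2 and 3, against 511, 444 and 443 CPM in N replicates 1, 2 and 3, with a log2 fold change of -0.61 ± 0.45 (SE; adjusted p = 0.368 in edgeR's quasi-likelihood test, which is the test behind every adjusted p below unless another is named). NS replicate 3 alone was far below the N libraries, and without it the log2 fold change was -0.18 with an adjusted p of 0.621. The labels do not say whether scrib1 lowers its RNA, so this level does not test the genotype. RNA of the Notch receptor gene N, which includes reads from the transgene where they match, was at 1602, 1458 and 501 CPM in NS and at 2236, 2016 and 2016 CPM in N (log2 fold change -0.82, adjusted p = 0.206).

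Across the 9444 genes tested, 399 rose in NS relative to N (4.22%) and 346 fell (3.66%) at a Benjamini-Hochberg adjusted p under 0.05, 745 in all (7.89%). Every count of list members given below is to be read against these shares. Of these, 267 rose and 237 fell by at least 2-fold, and 136 rose and 125 fell by at least 4-fold. The median log2 change was 1.41 among called higher genes and -1.55 among called lower genes. In 398 of the 399 higher genes every NS library lay above every N library, and in all 346 lower genes every NS library lay below, against 20.5% and 21.0% of all tested genes. The calls rest on these same values, so the separation describes the called genes and is no separate support for them. Without NS replicate 3, 487 genes rose (5.04% of 9671 tested) and 481 fell (4.97%), and these included 323 of the 399 and 310 of the 346. All 745 genes kept their sign, which groups that do not overlap nearly force, so it is no check on NS replicate 3. With the exon length trend corrected in every library 781 rose (8.27%) and 747 fell (7.91%), and with DESeq2 906 rose (9.18%) and 752 fell (7.62%) of 9865 genes given an adjusted p. The count of higher genes was 186, 232 and 168 without N replicate 1, 2 and 3, and that of lower genes was 183 and 189 without N replicate 1 and 3. Without NS replicate 1 and N replicate 2, the compared libraries with most fat body RNA, 168 rose and 155 fell. Of the 125 genes named by a rule given at the end, some had calls that held without each single library. Among these, leaving out both libraries ended the calls of hh, Wbp2, AGO3, Tektin-C, CG13032 and CR45682 (adjusted p 0.0507 to 0.0715). List members outside that rule are not covered here, and some of them lost their calls too. Calls that were already lost without some single library ended as well, those of upd3, Ets21C, Mmp1, ImpL2 and Ilp8 among them (0.0835 to 0.129). When libraries were scaled by their totals alone the split was 278 higher and 459 lower, and the median log2 fold change of all genes was -0.10 in place of 0.07. Genes known only by a CG number made up 199 of the 399 higher and 154 of the 346 lower genes, against 3885 of the 9444 tested. RNA of pooled discs cannot tell apart fewer cells of a type from less RNA per cell, and nothing in the labels says that pools came from separate crosses, so the p-values measure the spread between pools.

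**Figure D2:**
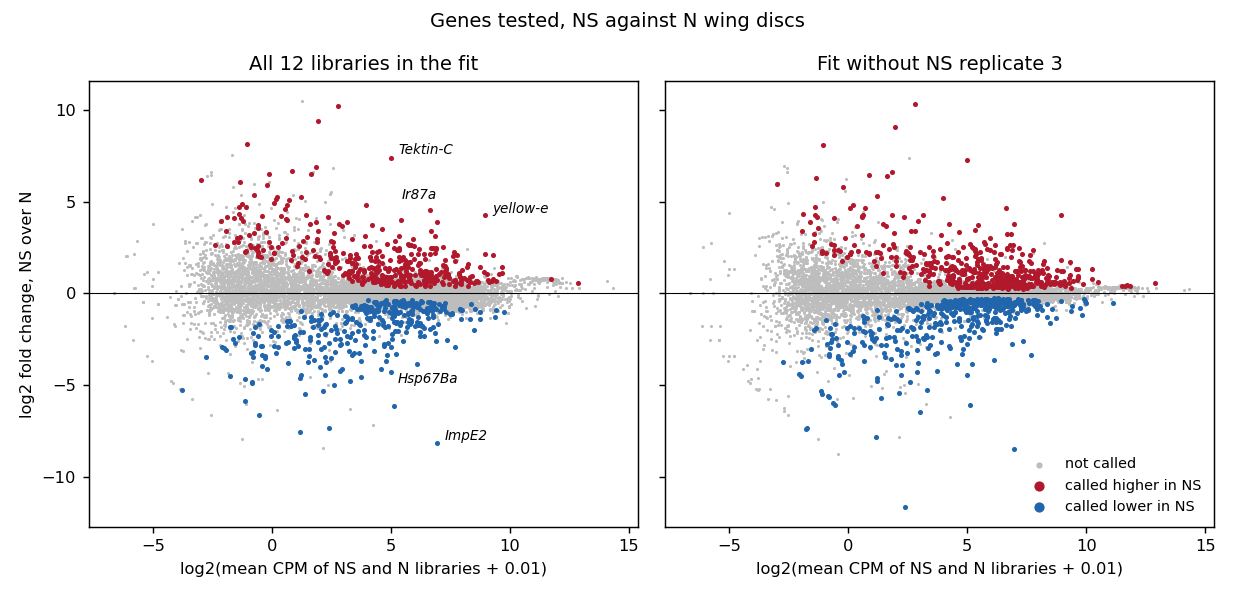
Log2 fold change of NS over N against log2 of the mean CPM, for the 9444 genes tested, with all 12 libraries in the fit on the left and, for those also tested there, without NS replicate 3 on the right. Red points were called higher and blue points lower, 399 and 346 of them on the left.

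The Unpaired cytokines, the secreted ligands of JAK/STAT signalling, rose in NS. Of 15 genes on the JAK/STAT list, all tested, 5 rose and 0 fell, against 4.22% and 3.66% of all genes. The median log2 fold change was 0.55, and without NS replicate 3 the counts were 6 and 0. Without NS replicate 1 and N replicate 2 they were 2 and 0. The ligand upd1 had 142, 109 and 93.3 CPM in NS replicates 1, 2 and 3, against 31.7, 22.1 and 24.9 CPM in N (log2 fold change 2.13 ± 0.27, adjusted p = 0.00101). A second ligand, upd3, had 80.7, 58.0 and 53.4 CPM in NS against 17.3, 9.53 and 9.95 CPM in N (2.38 ± 0.46, adjusted p = 0.00896). Every NS library lay above every N library for both ligands. The remaining ligand, upd2, was at 31.7 to 45.2 CPM in NS and at 4.94 to 11.9 CPM in N, with an adjusted p of 0.0469, and its call was lost without any 1 of 9 libraries (NS replicates 1 to 3, N replicates 1 to 3, S replicate 2, WT replicates 1 and 2; adjusted p 0.0550 to 0.188). apt, a transcription factor that modulates JAK/STAT output, had 147, 182 and 79.3 CPM in NS against 38.7, 39.7 and 34.0 CPM in N (log2 fold change 1.86, adjusted p = 0.00272). The phosphatase gene Ptp61F, a negative regulator, was the fifth called gene, with a log2 fold change of 0.55. The receptor and kinase genes were not called, with dome at 130 to 312 CPM in NS and 245 to 310 CPM in N, hop at 32.1 to 94.9 and 106 to 116 CPM, and Stat92E at 136 to 289 and 296 to 313 CPM. Socs36E, a feedback inhibitor induced by the pathway, had 306, 245 and 148 CPM in NS against 172, 136 and 137 CPM in N and passed the test without NS replicate 3 (log2 fold change 0.65, adjusted p = 0.14 with it; 0.88 and 0.0248 without it). So did chinmo, a target that promotes self-renewal, at 469, 536 and 91.9 CPM in NS and 210, 239 and 173 CPM in N (0.82 and 0.304 with that library, 1.27 and 0.0248 without it). The list's count of higher genes was 3 without N replicate 1 or 2, NS replicate 1 or 2 or WT replicate 1, and 2 without N replicate 3, where the call of upd3 was lost (adjusted p = 0.0574). The call of Ptp61F was lost without any N library, NS replicate 1 or 2 or WT replicate 1 (adjusted p 0.0520 to 0.118).

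Several targets of the stress kinase JNK rose as well. Of 22 genes on the JNK list, all tested, 5 rose and 1 fell, with a median log2 fold change of 0.47, against 4.22% and 3.66% of all genes. The counts were 7 and 1 without NS replicate 3, 12 and 2 with the exon length correction, and 2 and 0 without NS replicate 1 and N replicate 2. scaf, a JNK target that encodes a serine protease-like protein, had 482, 377 and 196 CPM in NS replicates 1, 2 and 3, against 98.8, 65.3 and 85.9 CPM in N (2.08 ± 0.32, adjusted p = 0.00273). Traf4, an adaptor between TNF receptors and the kinase cascade, had 84.2, 77.2 and 63.9 CPM in NS against 29.5, 24.8 and 23.3 CPM in N (1.54 ± 0.18, adjusted p = 0.000721). NS and N libraries did not overlap for either gene. The transcription factor gene Ets21C was at 122 to 159 CPM in NS and 23.3 to 40.9 CPM in N (2.12, adjusted p = 0.0105). The matrix metalloprotease gene Mmp1 had 582, 456 and 328 CPM in NS against 195, 114 and 138 CPM in N (1.61, adjusted p = 0.0124). Without N replicate 2 or 3 both calls were lost (adjusted p 0.0532 to 0.0600 for Ets21C and 0.0616 to 0.0696 for Mmp1), and the list then had 2 higher genes. puc, the phosphatase that feeds back on JNK, was not called, at 110, 102 and 62.3 CPM in NS and 68.4, 55.4 and 65.8 CPM in N (log2 fold change 0.53, adjusted p = 0.192). The ligand egr and the kinases hep and bsk were not called either, with log2 fold changes of 0.22, -0.31 and 0.16. wgn, a TNF receptor gene, fell by 0.67 on the log2 scale, a call that was lost without any 1 of 8 libraries (all N libraries, NS replicate 1, S replicates 1 and 2, WT replicates 1 and 2; adjusted p 0.0514 to 0.151). Of the genes called only without NS replicate 3, kay, the Fos transcription factor, had a log2 fold change of 1.25 (adjusted p = 0.0166; 0.97 and 0.0979 with that library), and cher, the filamin gene, one of 1.34 (adjusted p = 0.000635; 0.96 and 0.136 with it).

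Secreted growth factors moved in both directions. Of 26 listed, 24 were tested, of which 5 rose and 2 fell, against 4.22% and 3.66% of all genes. Without NS replicate 3 the counts were 6 and 1 of 25. Pvf1, a PDGF- and VEGF-like ligand, had 38.2, 29.0 and 23.1 CPM in NS replicates 1, 2 and 3, against 6.65, 4.58 and 3.91 CPM in N (2.57 ± 0.35, adjusted p = 0.00164). Its relative Pvf2 was at 28.6 to 36.9 CPM in NS and 10.8 to 15.4 CPM in N (1.29, adjusted p = 0.014). Ilp8, the relaxin-like peptide through which damaged or overgrown discs delay pupariation, had 946, 531 and 1593 CPM in NS against 341, 204 and 184 CPM in N. All NS libraries lay above all N libraries (log2 fold change 2.07 ± 0.50, adjusted p = 0.0298), and without NS replicate 3 the change was 1.59 with an adjusted p of 0.0648. The call was also lost without N replicate 1, 2 or 3 (adjusted p 0.0552 to 0.138). ImpL2, a secreted insulin-binding antagonist, had 546, 425 and 315 CPM in NS against 210, 115 and 143 CPM in N (1.46 ± 0.27, adjusted p = 0.0083; 0.0521 without N replicate 3). spi, an EGFR ligand, was at 244 to 360 CPM in NS and 168 to 218 CPM in N (0.66, adjusted p = 0.0371), and its call was lost without any 1 of 8 libraries (all N libraries, NS replicates 1 and 2, S replicate 2, WT replicates 1 and 2; adjusted p 0.0573 to 0.172). The list's count of higher genes was 3, 2 and 1 without N replicate 1, 2 and 3, and Pvf2 lost its call without N replicate 2 or 3 (adjusted p 0.0705 to 0.0709).

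Among patterning ligands, hh, the Hedgehog signal of the posterior compartment, fell to 34.9, 48.1 and 32.2 CPM in NS, against 87.4, 77.5 and 73.7 CPM in N (-1.05 ± 0.19, adjusted p = 0.00631; 0.0715 without NS replicate 1 and N replicate 2). Wnt2 was at 1.29 to 2.32 CPM in NS and 12.5 to 20.1 CPM in N (-3.12, adjusted p = 0.0255), a call that was lost without any 1 of 5 libraries (NS replicates 1 to 3, N replicates 1 and 3; adjusted p 0.0552 to 0.0814). wg, the Wingless ligand, was not called, at 272, 275 and 151 CPM in NS and 337, 276 and 300 CPM in N (-0.39, adjusted p = 0.283). Its neighbour and relative Wnt6 was at 212 to 246 CPM in NS and 156 to 213 CPM in N (0.21, adjusted p = 0.536), and the BMP ligand dpp at 49.8 to 94.9 CPM in NS and 86.7 to 106 CPM in N (-0.27, adjusted p = 0.398). Of 16 insulin and TOR pathway genes, 3 rose and 0 fell, against 4.22% and 3.66% of all genes. The 3 were ImpL2, Ilp8 and Thor, the translation inhibitor 4E-BP that FOXO induces. Thor was at 73.1 to 79.1 CPM in NS and 15.1 to 31.7 CPM in N (1.84, adjusted p = 0.0162, and 0.0880 to 0.0881 without N replicate 1 or 3). The list's count of higher genes was 1 without N replicate 1 and 0 without N replicate 3. Of 13 tested EGFR pathway genes, 1 rose and 2 fell, against 4.22% and 3.66% of all genes. The gene that rose was spi, and the transcription factor gene pnt (-1.07) and kek1 (-1.71), an EGFR inhibitor induced by the pathway, fell. Both of these calls were lost without any N library or WT replicate 2, and that of pnt also without S replicate 2 or WT replicate 1 or 3 (adjusted p 0.0605 to 0.160 for pnt and 0.0521 to 0.0980 for kek1).

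**Figure D3:**
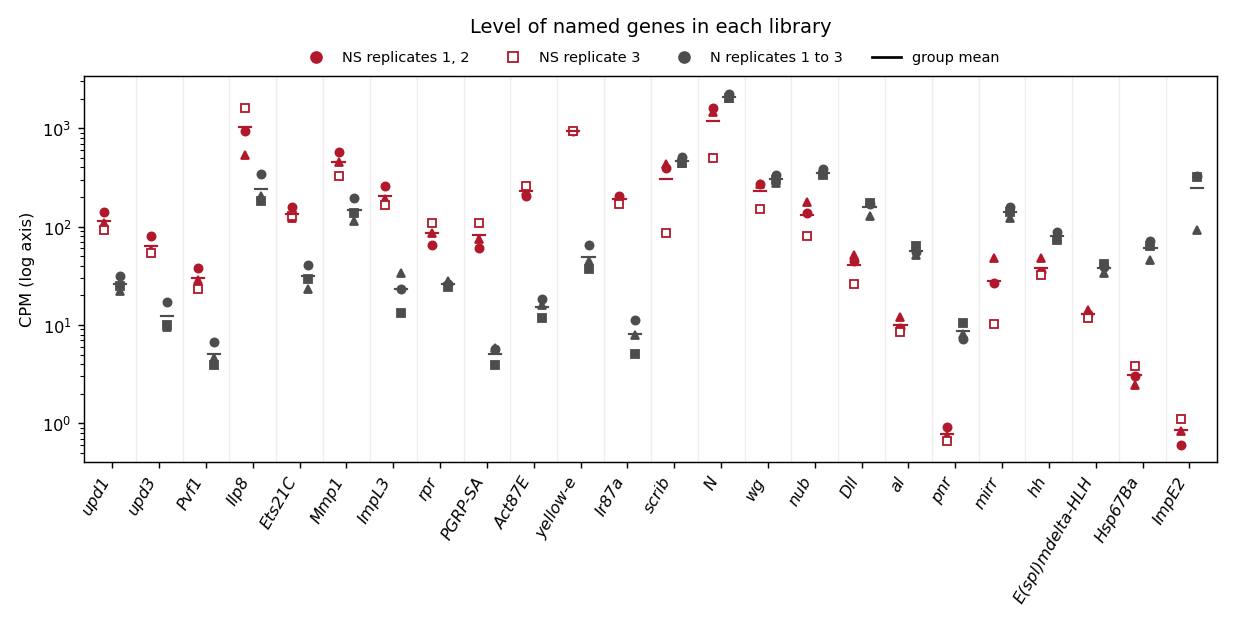
CPM on a log axis of 24 named genes in the 3 NS libraries (red, left of each pair) and the 3 N libraries (grey, right), with bars for group means. upd1 lies between 93.3 and 142 CPM in NS and between 22.1 and 31.7 CPM in N, and ImpE2 between 0.608 and 1.12 CPM in NS and between 91.6 and 330 CPM in N.

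Many genes that pattern the wing pouch, hinge and notum fell in NS. Of 43 on the list, all tested, 0 rose and 15 fell, against 4.22% and 3.66% of all genes. The median log2 fold change was -0.90 against 0.07 over all genes, and 0 rose and 16 fell without NS replicate 3 (median -0.80). With 1 library left out at a time the count of lower genes lay between 11 and 19, and it was 7 without NS replicate 1 and N replicate 2. The calls of nub, Dll, al, pnr and tup held in that fit, so most of those of C15, eyg, mirr, ara, en and inv were lost. In the pouch and distal limb group, nub, a POU-domain factor of the wing pouch, had 139, 178 and 81.0 CPM in NS replicates 1, 2 and 3, against 384, 340 and 338 CPM in N (-1.42 ± 0.23, adjusted p = 0.00399). Dll, the Distal-less factor of appendage tips and the wing margin, had 44.7, 51.4 and 25.9 CPM in NS against 169, 129 and 175 CPM in N (-1.96 ± 0.33, adjusted p = 0.00476). al, a homeobox gene of distal limbs, had 9.25, 12.1 and 8.52 CPM in NS against 55.3, 51.0 and 63.4 CPM in N (-2.51 ± 0.26, adjusted p = 0.000363). The groups did not overlap for any of these. C15, which acts with al in the leg, was at 0.0985 to 0.343 CPM in NS and 1.67 to 2.29 CPM in N (-3.25, adjusted p = 0.00998). vg, sd and ap, the selectors of wing identity and the dorsal compartment, were not called, with log2 fold changes of -0.58, -0.43 and -0.56 that came to -0.31, -0.03 and -0.20 without NS replicate 3.

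Several notum factors fell too. pnr, a GATA factor of the medial notum, had 0.925, 0.739 and 0.660 CPM in NS against 7.28, 8.11 and 10.5 CPM in N (-3.47 ± 0.54, adjusted p = 0.00295). eyg, a Pax factor of the notum, was at 2.87 to 4.68 CPM in NS and 23.3 to 30.1 CPM in N (-2.82, adjusted p = 0.00447), and tup, a LIM-homeobox factor, at 3.30 to 5.05 and 11.6 to 14.0 CPM (-1.56, adjusted p = 0.00164). The Iroquois-complex genes mirr, ara and caup, which mark the lateral notum and prospective vein regions, were at 10.4 to 47.9, 17.03 to 40.7 and 16.3 to 50.9 CPM in NS, against 123 to 158, 86.6 to 111 and 112 to 140 CPM in N. Their log2 fold changes were -2.32, -1.80 and -1.88. The posterior-compartment genes en and inv were at 14.8 to 29.8 and 47.9 to 67.5 CPM in NS, against 43.4 to 52.6 and 102 to 124 CPM in N, with log2 fold changes of -1.22 and -0.97, the same direction as hh. salr, vvl and Doc2 were the other called genes, with log2 fold changes of -1.15, -1.57 and -1.74, and each of these calls was lost without 5 or more of the 12 libraries. The call of caup was lost without N replicate 1 or 3 (adjusted p 0.0712 to 0.0728). hth and tsh, which mark the hinge and proximal disc, were not called, with log2 fold changes of -0.49 and -0.05. Disc epithelium markers other than nub, Dll and Fas3 were not called, 6 of 9, and the sum of all 9 was lowest in NS replicate 3. The part of tissue composition in these changes was not tested.

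Of 18 core genes of the Notch pathway, all tested, 0 rose and 0 fell, with a median log2 fold change of -0.32. Without NS replicate 3, 1 of them fell, dx (-0.48, adjusted p = 0.0395). Of 18 listed Notch targets, 16 were tested, of which 0 rose and 1 fell. With 7.89% of all genes called, counts this small say nothing particular about the pathway, and with the exon length correction 1 core gene and 3 targets fell. The target that fell with all libraries, uncorrected, was E(spl)mdelta-HLH, a bHLH repressor of the E(spl) complex. It was at 13.1, 14.1 and 11.8 CPM in NS replicates 1, 2 and 3, against 38.8, 33.5 and 41.8 CPM in N (-1.55 ± 0.27, adjusted p = 0.00605). Other members of the complex ran both ways without passing the test. E(spl)mgamma-HLH was at 29.2 to 39.1 CPM in NS and 15.7 to 17.6 CPM in N (1.03, adjusted p = 0.199), and E(spl)m4-BFM at 15.8 to 26.9 and 19.3 to 29.3 CPM (-0.22, adjusted p = 0.507). ct, a margin gene downstream of Notch, had 22.3, 18.7 and 2.72 CPM in NS against 92.9, 42.1 and 78.3 CPM in N, with an adjusted p of 0.0549 that was 0.0298 without NS replicate 3 (-2.29 and -1.80 on the log2 scale). Among 13 tested proneural and sensory organ genes, sc and sca fell, by 0.95 and 1.80 on the log2 scale. The call of sc was lost without NS replicate 1 or 2 or N replicate 1 or 3 (adjusted p 0.0661 to 0.129), and that of sca without any 1 of 9 libraries, NS replicate 3 among them (adjusted p 0.0852 without it).

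Ecdysone is the steroid that times moulting and disc eversion. Of 24 ecdysone-response genes, 22 were tested, of which 0 rose and 3 fell, against 4.22% and 3.66% of all genes. The median log2 fold change was -0.89, and 4 fell without NS replicate 3 and 8 with the exon length correction. ImpE2, an ecdysone-induced gene of disc eversion, had 0.608, 0.837 and 1.12 CPM in NS replicates 1, 2 and 3, against 330, 91.6 and 317 CPM in N (-8.17 ± 0.57, adjusted p = 4.7e-05). It averaged 2833 CPM in WT and 1.34 CPM in S. Eip78C, a nuclear receptor gene, had 0.475, 0.394 and 0.401 CPM in NS against 5.61, 1.21 and 3.18 CPM in N (-2.96 ± 0.47, adjusted p = 0.00347). NS and N libraries were apart for both genes. Eip74EF, an ETS factor, had a log2 fold change of -1.09 (adjusted p = 0.0469), a call that was lost without any 1 of 8 libraries (all N and WT libraries, NS replicate 1, S replicate 2; adjusted p 0.0503 to 0.171).

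Some matrix genes rose, while the calls of those that fell were lost in most fits with 1 library left out. Of 17 basement membrane and matrix protease genes, all tested, 4 rose and 2 fell, against 4.22% and 3.66% of all genes. The counts were 5 and 0 without NS replicate 3. Tig, which encodes the integrin ligand Tiggrin, had 179, 99.7 and 85.7 CPM in NS replicates 1, 2 and 3, against 22.96, 23.4 and 20.6 CPM in N (2.45 ± 0.31, adjusted p = 0.00111). Ndg, the nidogen gene, was at 1.77 to 4.15 CPM in NS and 0.242 to 0.448 CPM in N (3.04, adjusted p = 0.00605). Both proteases of the list, Mmp1 and Mmp2, were higher, the second by a log2 fold change of 0.90 with a call that was lost without any 1 of 9 libraries (adjusted p 0.0527 to 0.120). Collagen IV, encoded by Cg25C and vkg, was lower by 0.67 and 0.76 on the log2 scale (adjusted p = 0.0454 and 0.0395), and without NS replicate 3 neither passed (0.075 and 0.0662). These collagen calls were also lost without NS replicate 2, any N or WT library or S replicate 2, that of Cg25C also without S replicate 1, and the higher count was 2 without N replicate 2 or 3. Fat body and haemocytes make basement membrane proteins, and the sums of their markers are given above by library. Their part in these values was not tested.

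A few cytoskeletal genes rose by small amounts. Of 25 actin and integrin genes, all tested, 3 rose and 0 fell, against 4.22% and 3.66% of all genes. Higher genes numbered 7 when NS replicate 3 was left out and 8 under the exon length correction. The 3 were the myosin light chain gene sqh (log2 fold change 0.90), the GTPase gene Rho1 (0.67) and the vinculin gene Vinc (0.49). sqh was at 339 to 560 CPM in NS and 206 to 239 CPM in N, and Rho1 at 677 to 835 and 446 to 493 CPM. The count was 0 without any N library, S replicate 2 or WT replicate 1, 1 without NS replicate 1 or WT replicate 2 or 3, and the calls were lost at adjusted p of 0.0514 to 0.160. None of 18 apicobasal polarity genes passed the test with all libraries, and 3 rose with the exon length correction, against 7.89% of all genes called in either direction. Leaving out NS replicate 3, 2 rose, the polarity gene l(2)gl (0.54, adjusted p = 0.00491) and the Crumbs partner sdt (0.85, adjusted p = 0.00679). With all libraries these had adjusted p of 0.781 and 0.331. Of 17 tested septate junction genes, Fas3 fell, at 317 to 553 CPM in NS and 857 to 909 CPM in N (-0.91, adjusted p = 0.0178; 0.0510 to 0.0740 without any 1 N library). With the exon length correction it did not pass (-0.35, adjusted p = 0.109), and 2 genes of this list rose with that correction or without NS replicate 3. Of 19 tested Hippo pathway genes and targets, Wbp2, a coactivator partner of Yorkie, rose, at 64.7 to 72.8 CPM in NS and 33.6 to 37.7 CPM in N (0.97, adjusted p = 0.00556). kibra, an upstream regulator and target of the pathway, passed without NS replicate 3 (1.76, adjusted p = 0.00329) and with the exon length correction (1.69, adjusted p = 0.00121), against 1.37 and 0.0811 with all libraries uncorrected.

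On the glycolysis and cell death lists single genes were called with all libraries, against 4.22% of all genes higher and 3.66% lower. Counts this small say nothing particular about either list. ImpL3, the lactate dehydrogenase gene, had 260, 193 and 165 CPM in NS replicates 1, 2 and 3, against 23.2, 34.0 and 13.2 CPM in N (3.13 ± 0.43, adjusted p = 0.00167). It was the 1 gene of 16 on the glycolysis list that rose. Treh, encoding trehalase, was the 1 that fell, at 47.9 to 60.0 CPM in NS and 94.1 to 97.7 CPM in N (-0.86, adjusted p = 0.00495). Its call was lost with the exon length correction (-0.47, adjusted p = 0.0924). The lower count of this list was 4 without NS replicate 3 or with that correction and 2 without any 1 S library. rpr, the pro-apoptotic gene reaper, had 64.9, 87.2 and 108 CPM in NS against 26.3, 28.2 and 24.3 CPM in N (1.72 ± 0.25, adjusted p = 0.00196) and was the 1 called among 14 tested cell death genes. None of 33 cell cycle genes passed the test with or without NS replicate 3, with a median log2 fold change of -0.18. None of 5 tested Hox genes and none of 14 tested ribosome biogenesis genes passed with all libraries either. With the exon length correction 3 cell cycle genes fell, and 4 ribosome biogenesis genes, 1 Hox gene and 3 cell death genes rose.

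Of 13 tested heat shock genes, 1 rose and 3 fell, against 4.22% and 3.66% of all genes. The higher count is too small to say anything particular about the family. Hsp67Ba had 3.04, 2.46 and 3.79 CPM in NS against 71.9, 45.3 and 63.3 CPM in N (-4.27 ± 0.43, adjusted p = 0.000355), although 75.9% of its exon bases overlap an antisense RNA, and the counting's strand setting is not given in the sources used here. Hsp27 and Hsp23 were at 168 to 327 and 150 to 229 CPM in NS, against 495 to 765 and 301 to 675 CPM in N (-1.41 and -1.39). Hsc70-4, a constitutive chaperone, was at 8758 to 9278 CPM in NS and 5747 to 6412 CPM in N (0.55, adjusted p = 0.0113; 0.0607 to 0.0726 without N replicate 2 or 3). On the Toll and Imd list, 2 of 19 tested genes rose and 1 fell, against 4.22% and 3.66% of all genes. PGRP-SA, the secreted sensor of Gram-positive bacteria upstream of Toll, had 61.3, 75.0 and 108 CPM in NS against 5.64, 5.79 and 3.88 CPM in N (3.998 ± 0.49, adjusted p = 0.000919). nec, a serpin that restrains Toll activation, was at 10.6 to 20.02 CPM in NS and 3.65 to 4.82 CPM in N (1.91, adjusted p = 0.00447). The kinase gene pll fell by 0.38 on the log2 scale with a call that was lost without any 1 of 9 libraries (adjusted p 0.0617 to 0.201). Haemocyte marker sums overlapped between the groups, as given above, and their part in these values was not tested. Of 19 glutathione and antioxidant genes 0 rose and 2 fell, against 4.22% and 3.66% of all genes. GstS1, a glutathione S-transferase gene, had 255 to 279 CPM in NS and 459 to 510 CPM in N (-0.87 ± 0.12, adjusted p = 0.0017). GstD2 was the other, with a log2 fold change of -1.81, and its call was lost without any 1 of 11 libraries, all but S replicate 3 (adjusted p 0.0522 to 0.172). With the exon length correction 3 genes of this list rose. Of 10 tested germline genes 1 fell, against 3.66% of all genes. That gene was AGO3, a piRNA-pathway Argonaute, at 23.3 to 26.4 CPM in NS and 39.0 to 51.1 CPM in N (-0.88, adjusted p = 0.00369).

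Markers of muscle and trachea gave calls, while those of neurons did not, against 4.22% of all genes higher and 3.66% lower. Of 15 myoblast and muscle markers 1 fell, hbs, which encodes an adhesion protein also found in disc epithelium, at 3.10 to 9.14 CPM in NS and 38.4 to 51.2 CPM in N (-2.73, adjusted p = 0.00497). Marker sums of that list were 454 to 771 CPM in NS and 853 to 904 CPM in N. Of 8 tracheal markers, dysf and obst-A fell (-2.65 and -2.35) and serp rose (0.96; call lost without N replicate 1 or 3, adjusted p 0.0524 to 0.0659). Their summed level was 1365 to 2394 CPM in NS and 1354 to 1536 CPM in N. Of 8 tested neuronal markers 0 passed.

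**Figure D4:**
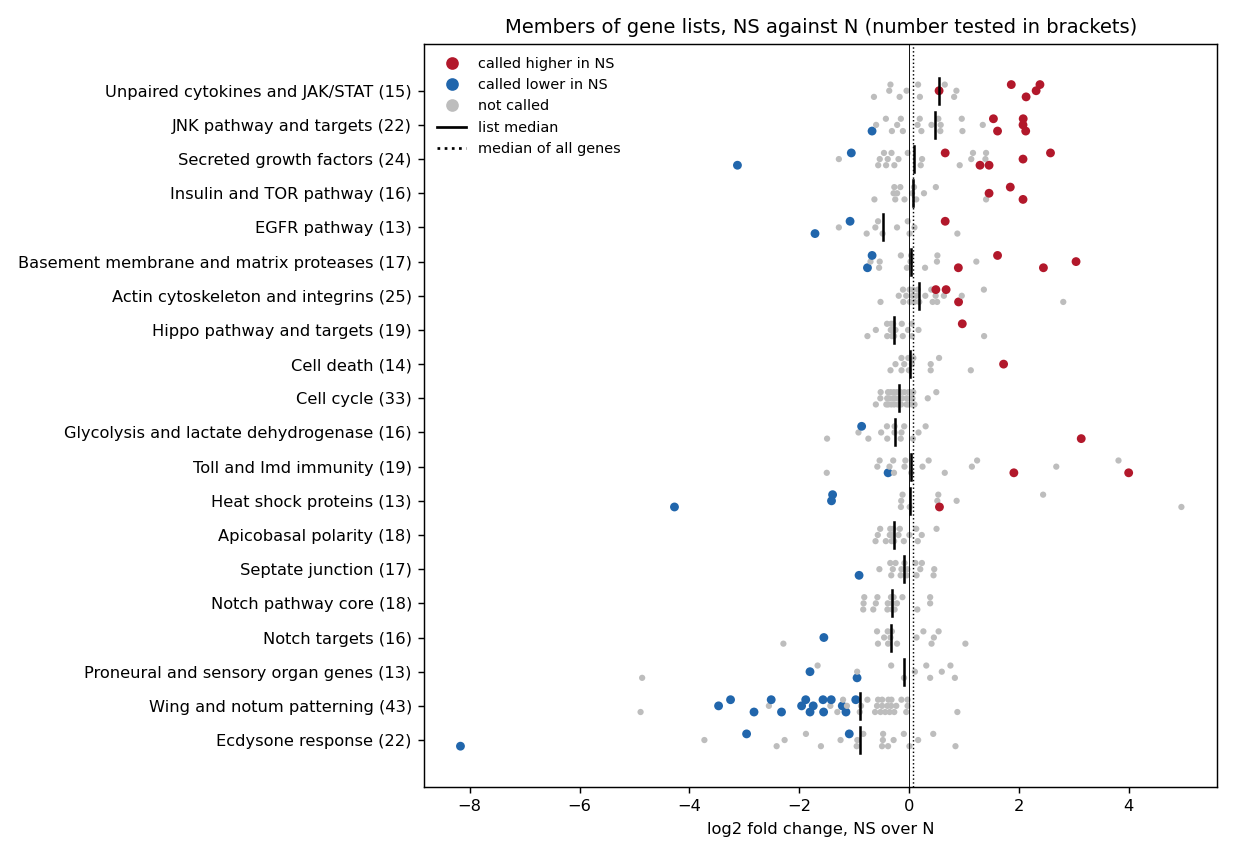
Log2 fold change of NS over N for the tested members of 20 gene lists, 1 point per gene, with called members in red (higher) and blue (lower), the list median as a bar and the median of all genes as a dotted line. Called members of the patterning list lie to the left of 0, 15 of 43, and called members of the JAK/STAT list to the right, 5 of 15.

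The strongest increases named by size, among genes called with and without NS replicate 3, were in little-described genes. Tektin-C, which encodes a tektin, a structural protein of ciliary microtubules, had 61.1, 56.4 and 73.2 CPM in NS replicates 1, 2 and 3, against 0.411, 0.105 and 0.574 CPM in N (7.41 ± 1.23, adjusted p = 0.0043). CG32437 was at 11.4 to 18.1 CPM in NS, while the N libraries held 1 count in all, which gives a ratio of 1774 with a 95% counting interval of 318 to 70106. CG13032 was at 5.84 to 10.7 CPM in NS, also with 1 count in N, a ratio of 975 with an interval of 174 to 38572. These intervals cover counting error only. CG13230 and CG12971 were at 4.88 to 9.49 CPM in NS and at 0 to 0.110 CPM in N (log2 fold changes 6.91 and 6.52). CG13857, CG34446 and CG17108 had log2 fold changes of 4.85, 4.26 and 4.14, the first with an adjusted p of 0.0524 without N replicate 1. bdl, encoding the immunoglobulin-family protein Borderless, had 18.8, 25.0 and 6.14 CPM in NS against 2.13, 0.421 and 0.750 CPM in N (3.91, adjusted p = 0.0264), a call that was lost without NS replicate 2 or N replicate 2 or 3 (adjusted p 0.0555 to 0.127).

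Among the strongest decreases, TwdlE, of the Tweedle family of cuticle proteins, had 1.35, 0.591 and 0.918 CPM in NS replicates 1, 2 and 3, against 101, 53.6 and 53.1 CPM in N (-6.14 ± 0.59, adjusted p = 0.000279), with 71.9% of its exon bases under a gene on the opposite strand. Gr64a, a gustatory receptor gene, was listed at 0 in NS replicates 1 and 2 and was at 0.172 CPM in NS replicate 3, against 11.1, 14.1 and 6.31 CPM in N. Spn43Aa, a serpin, had 0.608, 0.295 and 1.09 CPM in NS against 32.0, 10.1 and 14.8 CPM in N (-4.76 ± 0.52, adjusted p = 0.000463). Libraries of NS and N that do not overlap were a condition for naming these genes. Ptr, a Patched-related gene, was at 0.258 to 0.443 CPM in NS and 8.95 to 17.1 CPM in N (-5.00), the sulfotransferase gene St2 at 0.0985 to 0.264 and 3.55 to 11.4 CPM (-5.33), and stops, a gene known from phototransduction in the eye, at 0.0493 to 0.143 and 3.80 to 5.96 CPM (-5.46). CG11000, CG1273, CG3097 and CG5758 completed the 12 with log2 fold changes of -4.55, -4.45, -4.26 and -4.12.

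An adjacent group of genes on chromosome arm 3R rose together. yellow-e (3R:13409543-13415286, minus strand), Ir87a (3R:13420279-13423140, plus strand) and Act87E (3R:13425983-13428375, plus strand; all BDGP6, the Ensembl name of dm6) lie within 18833 bases. yellow-e, of the yellow protein family, had 947, 929 and 934 CPM in NS replicates 1, 2 and 3, against 64.5, 44.7 and 37.0 CPM in N (4.26 ± 0.23, adjusted p = 5e-06). Ir87a, of the ionotropic receptor family, had 205, 199 and 171 CPM in NS against 11.2, 7.98 and 5.10 CPM in N (4.57 ± 0.26, adjusted p = 7e-06). Act87E, a muscle-type actin gene, had 205, 229 and 260 CPM in NS against 18.6, 15.9 and 11.7 CPM in N (3.91 ± 0.19, adjusted p = 3e-06). The 3 NS libraries were close to each other for all of these genes, NS replicate 3 included. Actin genes are nearly identical in sequence, so reads of Act87E can be lost or shared with its paralogs, and its level is uncertain for that reason. Mlp60A, a muscle LIM protein gene also looked at after these values were seen, was high in NS replicate 3 alone. It was at 0.396, 0.197 and 11.9 CPM in NS replicates 1, 2 and 3, against 0.194, 0.500 and 0.0662 CPM in N. The flanking genes, looked at after these values were seen, moved less. On one side, yellow-e3 had a log2 fold change of 0.71 (adjusted p = 0.00337) and yellow-e2 of 0.21 (adjusted p = 0.44). On the other, yrt (3R:13428867-13434984, minus strand) had -0.53 (adjusted p = 0.232). By whole chromosome arm, 2.41% to 5.20% of tested genes were called higher and 2.41% to 5.58% lower, with the highest share of lower genes on 3L, 103 of 1846.

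S against WT gives the change that accompanied scrib loss where no activated Notch was added, in libraries whose levels do not enter the difference of NS and N, although all 12 set the spread behind both tests. There, 1195 genes rose (12.7%) and 1014 fell (10.7%). Of the 399 genes higher in NS than in N, 303 were also higher in S than in WT (75.9% of these and 25.4% of the S list), and 4 were lower. Of the 346 genes lower in NS, 262 were also lower in S (75.7% and 25.8%), and 3 were higher. Across the 9444 genes the log2 fold changes had a Spearman correlation of 0.54 and a Pearson correlation of 0.50, a description over genes that share libraries and are not independent. upd1 averaged 67.0 CPM in S and 9.07 CPM in WT, ImpL3 313 and 19.2 CPM, PGRP-SA 74.1 and 2.86 CPM, nub 74.4 and 280 CPM, and al 4.86 and 68.5 CPM, so each moved in the direction it took in NS against N.

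The difference between the NS against N change and the S against WT change, tested as an interaction, was called more positive for 81 genes (0.858%) and more negative for 44 (0.466%), 125 in all (1.32%). These counts moved by over 1.5 times without any 1 library other than WT replicate 3, between 23 and 263 for the more positive and between 13 and 99 for the more negative genes, and with WT replicate 1 as the only WT library they were 44 and 4. Apart from activated Notch, the comparisons differed in that scrib loss was mosaic in NS and present throughout in S, and in that S had the deficiency and no driver, and these cannot be told apart here. Act87E averaged 21.1 CPM in S and 18.4 CPM in WT (log2 fold change 0.20, adjusted p = 0.403), so its increase was larger in NS against N by 3.71 ± 0.25 on the log2 scale (adjusted p = 7.7e-05). yellow-e averaged 22.3 CPM in S and 12.8 CPM in WT, an interaction of 3.47 ± 0.29 (adjusted p = 0.000301). Ir87a rose in both, to 3.07 CPM in S against 0.189 CPM in WT, with an interaction of 0.58 (adjusted p = 0.618). Ilp8 had 319, 501 and 697 CPM in S replicates 1, 2 and 3, against 6.06, 2.49 and 2.16 CPM in WT, a log2 fold change of 7.15 against 2.07 in NS over N, and an interaction of -5.07 ± 0.73 (adjusted p = 0.00987; 0.110 with WT replicate 1 as the only WT library). N discs without the scrib mutation already had 184 to 341 CPM of it. Among the 399 higher genes 17 had a called interaction, and among the 346 lower genes 41.

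**Figure D5:**
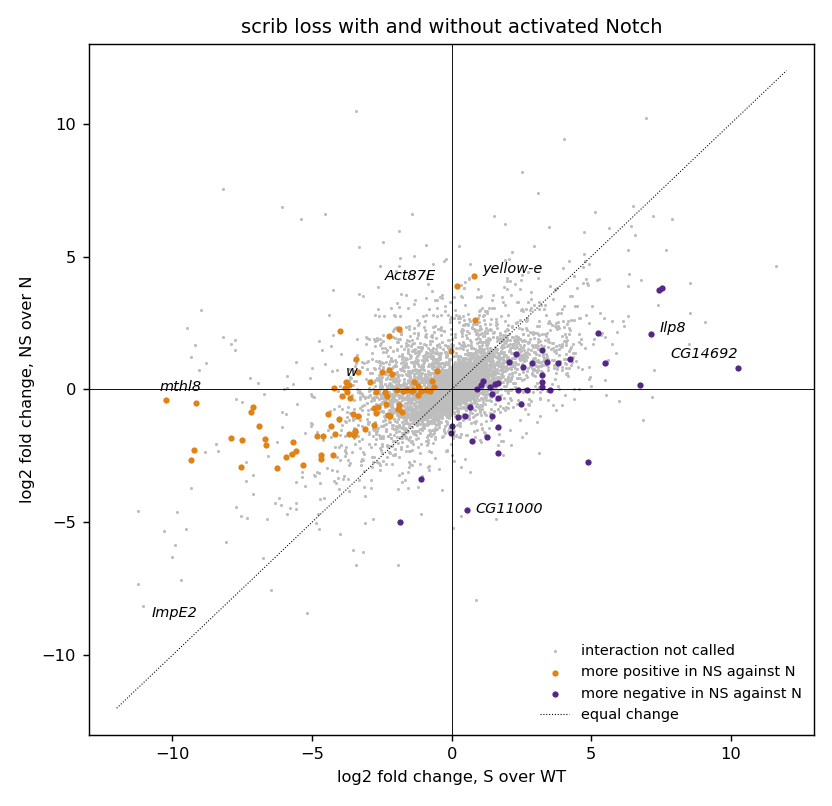
Log2 fold change of NS over N (vertical) against that of S over WT (horizontal) for the 9444 tested genes, with genes called in the interaction in orange (81, more positive in NS against N) and purple (44, more negative), and the line of equal change dotted. Act87E and yellow-e lie high on the vertical axis near 0 on the horizontal one.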

How the data were processed

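RNA of 12 wing disc pools was sequenced by the authors from poly(A)-selected, strand-marking libraries, per the labels' protocols. TopHat2 2.0.9, Bowtie2 2.1.0, HTSeq, edgeR, DESeq and the genome build dm6 appear in the submitters' processing notes. Which annotation release was counted, and whether by strand, is not stated in the labels. The deposited values are raw read counts per gene symbol, 17716 symbols in 12 columns, from 21024017 to 42407447 counts per library. Depth limits genes with few counts most, and 4000 symbols were at 0 in all 6 compared libraries.

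From these counts, edgeR 4.0.16 in R 4.3.3 (with limma 3.58.1) was run with filterByExpr by group, TMM scaling and a quasi-likelihood test over all 12 libraries, 1 coefficient per group. The threshold was an adjusted p (Benjamini-Hochberg, over all genes tested) of 0.05. CPM uses TMM-scaled library sizes. The script was tested on simulated counts without an exon length trend, so that test does not cover the behaviour of NS replicate 3. DESeq2 1.42.0, other scalings, no filter, an exon length correction (lowess span 0.3), a replicate block and left-out libraries were alternatives. Of the symbols, 13320 matched a current symbol, 4213 a synonym and 183 none. No pair of libraries of the same group held identical counts. Replicate numbers were taken as names, not as pairs.

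Named genes were the 12 highest and 12 lowest called genes with at least 5 CPM in the higher group, no overlap of libraries and a call without NS replicate 3, up to 3 genes per list by adjusted p, a fixed set of signalling and patterning genes, and up to 5 interaction genes of each sign. Genes outside the rule were chosen after their values were seen: members given to complete a list's count, and those stated as such. The comparison, the gene lists and the rule were chosen with earlier results of these data known. Of 74 called named genes, 50 kept their call without each of the 12 libraries. Exon overlap with a second gene touches 26 of the 125 named genes, for 21 on the other strand.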

Additional observations from a re-analysis of the deposited data

Results flagged for a closer look

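The results below were singled out because the change with scrib loss differed between discs with activated Notch (NS against N) and discs without it (S against WT), as tested by the interaction in edgeR's quasi-likelihood fit. It was called more positive for 81 genes and more negative for 44. Of the genes below, mthl8, w, CG13053, CG14692 and corolla were not called in NS against N (adjusted p 0.134 to 0.958). For mthl8 and CG13053 the log2 fold change of NS over N was negative (-0.39 and -0.87). A more positive change there means a smaller fall than in S over WT. S was mutant throughout, lacked the driver and carried a deficiency, whereas NS was mosaic, so these and activated Notch cannot be told apart for any of them.

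Among genes with a more positive change, Act87E and yellow-e, given above, had interactions of 3.71 and 3.47 on the log2 scale. mthl8, a Methuselah-like receptor gene, was at 17.9 to 20.9 CPM in NS and 25.1 to 26.0 CPM in N. The S libraries held 2 counts of it in all and the WT libraries 3206, a ratio of WT over S of 1426 with a 95% counting interval of 394 to 11778, and the fitted interaction was 9.86, a value that depends on how zeros are handled. w, the white eye pigment transporter gene that the strains' transgenes and w- alleles involve, was at 404 to 466 CPM in NS and 368 to 414 CPM in N, against 18.2 to 34.9 CPM in S and 286 to 432 CPM in WT (interaction 3.83). CG13053 was at 19.4 to 36.3 CPM in NS and 44.3 to 68.0 CPM in N, against 0.0537 to 0.406 CPM in S and 28.1 to 37.3 CPM in WT (interaction 6.30). E(spl)mdelta-HLH (1.90) and Eip78C (3.28) lost their interaction calls without any 1 of 9 and 8 libraries, with adjusted p up to 0.142 and 0.119.

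Among genes with a more negative change, Ilp8, given above, had an interaction of -5.07. CG14692 was at 0.0985 to 0.287 CPM in NS and 0.0263 to 0.243 CPM in N, against 205 to 250 CPM in S and 0.154 to 0.205 CPM in WT (interaction -9.46). CR45682, of whose exon bases 74.0% overlap a gene on the opposite strand, was at 0.0493 to 0.115 CPM in NS and 0.309 to 0.847 CPM in N, against 13.9 to 18.2 CPM in S and 0.410 to 0.693 CPM in WT (interaction -7.62). CG43394 was at 8.66 to 14.1 CPM in NS and 5.45 to 6.82 CPM in N, against 183 to 237 CPM in S and 17.2 to 23.3 CPM in WT (interaction -2.38). corolla, a gene of the meiotic synaptonemal complex, was at 1.72 to 2.09 CPM in NS and 1.72 to 2.32 CPM in N, against 10.7 to 21.6 CPM in S and 1.08 to 1.72 CPM in WT (interaction -3.56). CG11000 and Ptr had interactions of -5.11 and -3.14, and the call of Ptr was lost without any 1 of 10 libraries, with adjusted p up to 0.112. With WT replicate 1 as the only WT library the interaction calls of Ptr, CG11000, Eip78C, Ilp8 and corolla were lost, with adjusted p of 0.214, 0.0759, 0.205, 0.110 and 0.0617.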

How the results depend on the processing

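Counts of genes higher and lower in NS than in N were 906 and 752 with DESeq2, 781 and 747 with the exon length correction, 168 and 155 without NS replicate 1 and N replicate 2, and 1168 and 1032 with NS and N libraries alone without NS replicate 3. With NS and N libraries alone they were 289 and 226. Leaving out 1 library gave 168 to 499 higher and 183 to 481 lower genes. RLE scaling gave 381 and 367, library totals 278 and 459, and no filter 271 and 280. The interaction counts, more positive and more negative, were 293 and 171 with DESeq2, 48 and 28 with no filter, 203 and 126 with the length correction, 16 and 13 without NS replicate 1 and N replicate 2, and 44 and 4 with WT replicate 1 alone. Leaving out 1 library gave 23 to 263 and 13 to 99. With the replicate number as a replicate block, 309 genes were higher and 297 lower, and the interaction counts were 49 and 26. Deviations of same-numbered NS and N libraries correlated at -0.25, -0.49 and -0.11 across genes, and those of other pairs at -0.21 to 0.45. Deviations from the mean of so few libraries are not independent, so these values cannot decide whether the numbers pair the libraries. Among the 125 named genes signs turned for 6, none of them called in NS against N, and the uncalled genes dome, hep, tsh and l(2)gl also changed sign with 1 library left out. The log2 fold change became 0.00273 for dlg1 with the length correction, 5.79 for abd-A without NS replicate 1 and N replicate 2 (range -3.51 to 5.40 with 1 library left out), -1.01 for Lsp1gamma with the block, -0.55 for Fbp1 without NS replicate 1 (range -0.55 to 3.73), -0.0101 for w with library totals, and, for corolla, 0.0852 without N replicate 2, 0.0657 without NS replicate 2 (range -0.13 to 0.0852) and 0.0403 without NS replicate 1 and N replicate 2. Settings with fewer libraries have fewer degrees of freedom, and for the other changes the cause was not tested. Of the 125 named genes, DESeq2 kept 108 on their side of the threshold and the fit without NS replicate 3 kept 112. Without NS replicate 1 and N replicate 2, 29 lost their call. Depth limits genes with few counts, and exon length in NS replicate 3 limits long ones.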

Other observations

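The genes below lie outside the lists and were chosen after their values were seen, so they stand for no group. Tdc2, a tyrosine decarboxylase, had 36.4, 35.3 and 32.0 CPM in NS replicates 1, 2 and 3, against 3.10, 2.29 and 2.30 CPM in N (log2 fold change 3.75 ± 0.39, adjusted p = 0.000363 in edgeR's test), and Tdc1 was at 89.1 to 134 CPM in NS and 14.98 to 23.4 CPM in N (2.59, adjusted p = 0.00208). Ddc, dopa decarboxylase, had a log2 fold change of 2.48 (adjusted p = 0.0384), and its call was lost without any 1 of 8 libraries (adjusted p 0.0538 to 0.133). nyo, of the zona pellucida domain family, had 12.5, 8.67 and 5.91 CPM in NS against 160, 96.2 and 131 CPM in N (-3.84 ± 0.37, adjusted p = 0.000279). The cuticle protein gene Cpr66D was at 5.76 to 8.87 CPM in NS and 48.6 to 66.9 CPM in N (-2.91), and the protease gene Np at 7.89 to 17.6 and 58.8 to 95.5 CPM (-2.62). obst-E, a chitin-binding protein gene, rose (1.79, adjusted p = 0.00841; 0.0505 without N replicate 1).

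Of transcription factor genes chosen in the same way, ss was at 0.516 to 2.91 CPM in NS and 21.2 to 30.0 CPM in N (-3.69), toe at 3.01 to 5.47 and 34.2 to 35.3 CPM (-3.15), and pdm2, the neighbour and relative of nub, at 14.2 to 24.2 and 56.4 to 69.1 CPM (-1.70). pk, a core gene of planar cell polarity, was at 13.9 to 21.1 CPM in NS and 71.1 to 90.0 CPM in N (-2.12, adjusted p = 0.00164). Drip, an aquaporin gene, had 107, 92.8 and 78.3 CPM in NS against 15.1, 14.9 and 15.4 CPM in N (2.61 ± 0.22, adjusted p = 0.000188), and wun2, a lipid phosphate phosphatase gene, was at 223 to 266 CPM in NS and 38.8 to 51.1 CPM in N (2.52, adjusted p = 0.000363). Argk, encoding arginine kinase, had 46.1, 23.7 and 74.1 CPM in NS against 406, 300 and 373 CPM in N (-2.91, adjusted p = 0.00196).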
